A study of Mus musculus with 4 samples.

Results

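The protein and RNA genes of mouse chromosome 14 that gave clear signal in 4T1 cells are described here, in order along the chromosome. The members were chosen by measured signal. A row of the array table was kept where its identifier placed it on chromosome 14, where it had a single gene symbol and where its mean over the 4 arrays was at least 6 on the log2 scale, and a gene with several such rows was represented by the brightest. Of the 2828 rows on chromosome 14, 1256 had 1 symbol, and 366 of these passed the brightness rule. They gave 364 members, of 10478 genes that passed the same rule on all chromosomes. The rule used the brightness of all 4 arrays together and not the difference between groups. The chromosome itself had been singled out with its median difference known, so that the counts and medians below describe it and no test was run on them.

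4T1 is a mouse mammary carcinoma line with high metastatic capacity, used as a stand-in for triple-negative breast cancer, which lacks hormone receptors and HER2. RNA of cells grown in RPMI-1640 medium was hybridised to 4 whole-transcript arrays, 2 of cells with a scramble control (NC) and 2 of cells labelled as silenced for MCT-1 with a short hairpin RNA (shMCT-1). The shMCT-1 clones had been selected over 2 weeks with puromycin at 0.5 μg/ml per the labels, and whether the NC cells received puromycin is not given there. The submitters call the replicates independent and biological, but whether they were separate clones or cultures of 1 clone is not given, so the spread within a group may not include the spread between clones.

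The arrays labelled shMCT-1 were not shown to hold less of the targeted transcript. Mcts1, which encodes MCT-1, was at 7.86 and 8.05 in the NC arrays, against 7.81 and 7.89 in the shMCT-1 arrays, a difference of -0.10 (limma adjusted p = 0.945). The ranges of the groups overlapped, and whether a probe lies where the hairpin acts is not given, so every direction below belongs to the arrays as labelled. Of the epithelial markers, Epcam, Cdh1, Krt8, Krt18 and Krt14 were bright and Krt5 was dim at 4.84 to 5.04. Krt14, a keratin of basal cells, read 12.92 and 12.76 on the NC arrays against 11.12 and 11.20, and its part in the results below was not tested. The 3 leukocyte markers measured lay at 2.80 to 3.48, a pair of endothelial markers at 3.30 to 4.24 and the fibroblast marker Dcn at 2.92 to 3.06 in all 4 arrays. The median over all rows was 3.68 and 3.69 on the NC arrays and 3.73 and 3.68 on the shMCT-1 arrays.

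Neighbouring genes on a chromosome can share chromatin domains, replication timing and gene copy number, and tumour lines such as 4T1 carry rearranged chromosomes. RNA levels of a chromosome's genes can therefore be read along its length as well as gene by gene. Mouse chromosome 14 carries genes for the membrane protease Mmp14, the retinoblastoma protein Rb1, the deubiquitinase Bap1, the topoisomerase Top2b and the T cell receptor alpha segments.

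The 300-base promoter windows of 5 members whose groups did not overlap are shown as examples, picked with their values in view. Each runs from 250 bases before to 50 bases after a RefSeq transcription start in GRCm38.p6, 5′ to 3′ on the gene's own strand, and CG dinucleotides are in capitals. Anxa8 (chr14:34085729-34086028, plus strand) encodes annexin A8, a calcium-dependent membrane-binding protein, and had the lowest difference of any member. Tspan14 (chr14:40966847-40967146, minus strand) encodes a tetraspanin that escorts the protease ADAM10 and had the lowest unadjusted p. Mmp14 (chr14:54431348-54431647, plus strand) and Lrp10 (chr14:54463897-54464196, plus strand) are consecutive among plus-strand members, with the minus-strand small RNA gene Gm24424 between them, and were lower in the shMCT-1 arrays by a like amount. Kcnk5 (chr14:20181733-20182032, minus strand), a potassium channel gene, is shown as a member that was higher.
Anxa8: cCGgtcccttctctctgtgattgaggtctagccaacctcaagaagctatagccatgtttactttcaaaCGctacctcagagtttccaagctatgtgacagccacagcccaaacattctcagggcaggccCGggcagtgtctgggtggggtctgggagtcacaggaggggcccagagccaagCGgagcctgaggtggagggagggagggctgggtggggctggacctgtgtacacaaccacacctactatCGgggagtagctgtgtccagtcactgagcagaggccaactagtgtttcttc
Tspan14: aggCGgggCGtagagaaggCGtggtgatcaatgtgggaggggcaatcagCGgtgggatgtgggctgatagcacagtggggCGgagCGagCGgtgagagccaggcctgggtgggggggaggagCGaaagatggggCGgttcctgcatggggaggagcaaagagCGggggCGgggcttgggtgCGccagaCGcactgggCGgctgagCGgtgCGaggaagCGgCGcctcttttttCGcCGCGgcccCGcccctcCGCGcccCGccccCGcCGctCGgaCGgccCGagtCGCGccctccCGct
Mmp14: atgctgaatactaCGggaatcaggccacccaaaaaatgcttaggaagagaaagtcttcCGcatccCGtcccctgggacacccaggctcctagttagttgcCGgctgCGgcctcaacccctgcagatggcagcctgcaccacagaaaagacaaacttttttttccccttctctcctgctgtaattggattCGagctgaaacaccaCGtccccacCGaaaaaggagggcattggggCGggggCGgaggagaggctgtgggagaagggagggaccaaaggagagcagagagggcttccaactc
Lrp10: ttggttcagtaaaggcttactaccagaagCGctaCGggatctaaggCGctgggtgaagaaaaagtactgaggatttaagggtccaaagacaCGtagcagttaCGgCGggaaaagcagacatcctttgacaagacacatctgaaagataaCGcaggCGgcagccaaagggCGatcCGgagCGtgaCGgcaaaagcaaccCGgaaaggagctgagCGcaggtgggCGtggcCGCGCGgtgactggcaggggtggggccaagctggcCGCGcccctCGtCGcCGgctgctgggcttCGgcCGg
Kcnk5: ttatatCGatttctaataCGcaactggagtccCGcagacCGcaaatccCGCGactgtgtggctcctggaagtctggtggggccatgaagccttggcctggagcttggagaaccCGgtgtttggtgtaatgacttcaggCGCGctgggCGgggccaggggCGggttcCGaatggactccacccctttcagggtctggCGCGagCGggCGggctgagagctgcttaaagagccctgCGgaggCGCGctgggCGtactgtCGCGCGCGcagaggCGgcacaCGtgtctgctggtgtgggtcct
The windows of the lower members differed widely from each other. Anxa8 had 5 CG dinucleotides and Mmp14 had 10, while Lrp10 had 25, Tspan14 had 33 and the higher member Kcnk5 had 26. The GC box GGGCGG or its reverse complement CCGCCC, the letters bound by Sp1-family factors, was found 6 times in the Tspan14 window, 3 times in Kcnk5, 2 times in Mmp14 and 0 times in Anxa8 and Lrp10.

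RefSeq windows were matched by symbol for 211 of the 364 members. Their median CG count was 24, with a GC box in 69.7%, against a median of 7 and a share of 36.2% over the first windows of all 26794 genes in the table, which were not chosen for signal. Among the 101 matched members with both shMCT-1 arrays below both NC arrays, 76.2% had a GC box and the median CG count was 25. Among the 107 members whose groups overlapped, 63.6% had a GC box and the median was 24. Across the 211 members the CG count and the difference had a Pearson r of 0.091 and a Spearman rho of 0.024, given as a description, since these genes share the same 4 arrays.

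Most members were lower in the shMCT-1 arrays, by a small amount. These are bulk values, in which fewer cells with a transcript and less RNA per cell cannot be told apart. The shMCT-1 mean was below the NC mean for 265 of 364 members (72.8%) and above it for 99, where 46.8% of all genes past the same rule were lower. The median difference, shMCT-1 minus NC, was -0.13 on the log2 scale, a change of -8.34% in linear signal, and the middle 50% of members ran from -0.30 to 0.013. Over the 10114 genes of the other chromosomes the median was 0.023. The spread among members was like that among all genes, with an interquartile range of 0.32 against 0.31, so that the members as a whole sat lower with a like width.

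The 4 arrays sorted by group at the level of the chromosome. After each gene's mean over the arrays and each array's median over all genes were taken off, the members' median was 0.069 and 0.073 on the NC arrays and -0.066 and -0.079 on the shMCT-1 arrays. Both shMCT-1 arrays thus lay below both NC arrays, and the gap between groups was wider than the gap within either. Sorting by group was not particular to chromosome 14. In one direction or the other it was seen on every chromosome except 4, 11 and X. Chromosome 9, with a median difference of 0.015, had deviations of -0.0027 and -0.0071 in the NC arrays and 0.0023 and 0.0071 in the shMCT-1 arrays. By its median difference chromosome 14 was number 2 from the bottom of 20 chromosomes. Chromosome 8 was lower at -0.16 over 592 genes, with deviations of 0.096 and 0.069 in the NC arrays and -0.081 and -0.077 in the shMCT-1 arrays. Chromosome 15 was at the other end at 0.14 over 385 genes, and chromosome 12, with a similar number of genes to chromosome 14, was at -0.084. No test of the difference between chromosomes was run.

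**Figure D1:**
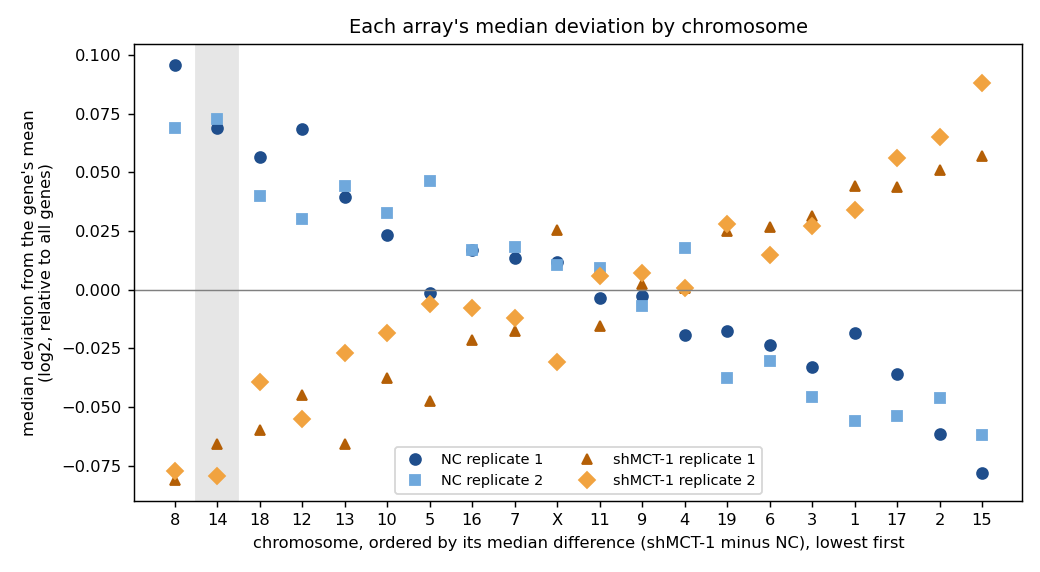
Each chromosome's median deviation of its genes from their own mean (log2, vertical axis) on each of the 4 arrays, relative to the array's median over all genes that passed the brightness rule, with chromosomes ordered by their median difference. Circles and squares are the NC arrays, triangles and diamonds the arrays labelled shMCT-1, and the shaded chromosome 14 has NC values of 0.069 and 0.073 and shMCT-1 values of -0.066 and -0.079.

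Gene by gene the difference was seldom large beside the spread of the replicates. Both shMCT-1 arrays were below both NC arrays for 151 members (41.5%), against a background of 20.8% of all genes past the rule. Both were above both NC arrays for 17 members (4.67%), against a background of 18.5%, and the groups overlapped for 196. No member passed limma's adjusted p threshold of 0.05, and the lowest adjusted p was 0.882. The background is 0% of the 10478 genes. At an unadjusted limma p under 0.05 there were 54 lower members, where the background is 5.38%, and 5 higher members, where the background is 3.35%. In size, 29 of the 364 members were lower by 0.5 or more and 7 were higher by 0.5 or more. Of all 10478 genes past the rule, 498 were lower and 312 higher by that much.

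Among the larger gene classes the lower level was most visible in protein-coding members, though the difference between gene classes was not tested. The 3 lncRNA members had a median of -0.59, with 2 lower and 1 higher. The 270 protein-coding members had a median of -0.17, or -11.3% in linear signal, and 223 of them (82.6%) were lower, against a background of 51.9% of protein-coding genes. Both shMCT-1 arrays were below both NC arrays for 137 coding members (50.7%, background 24.7%) and above them for 4 (background 15.6%). The 7426 coding genes elsewhere had a median of -0.0037. The 60 pseudogene members had a median of 0.017, with 27 lower and 33 higher, and pseudogenes elsewhere had a median of 0.070. Some lower pseudogenes may not be separate measurements, though each was counted. Gm17121 and Gm17222 both had -0.33, Rps19-ps1 and Rps19-ps2 both -0.11, and Gm6740 and Gm6755 both -0.21. Each of these pairs also had equal differences with each array left out. The 17 small RNA members had a median of 0.11, with 7 lower and 10 higher, and small RNA genes elsewhere had the same median. The chromosome 14 median is the difference of Gm22823 and Gm24540, which had the same values on all 4 arrays and may not be separate measurements. Whether small RNA genes elsewhere share sequence with them was not tested, so the equal medians may not come from separate measurements. Pseudogene members were also brighter, at a median signal of 13.2 against 9.27 for coding members, and the part that shared sequence with genes elsewhere had in their signal was not tested.

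**Figure D2:**
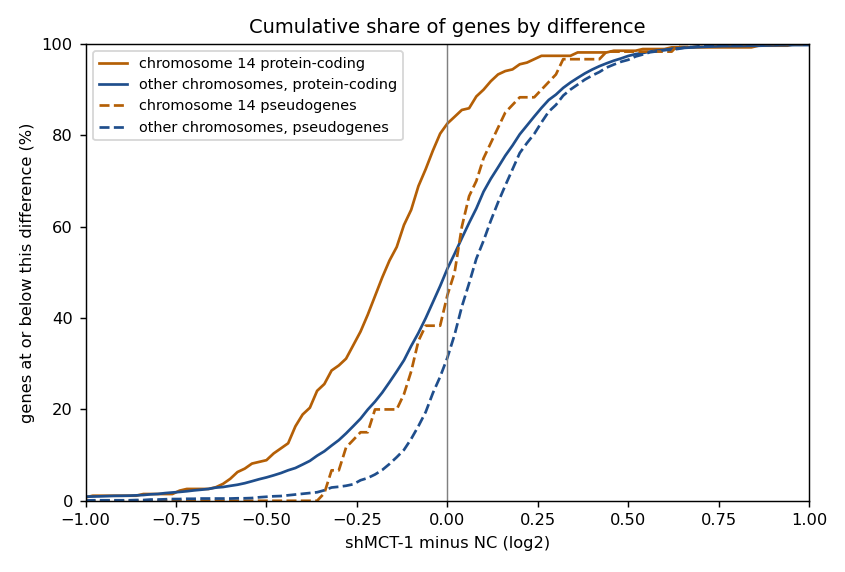
Share of genes (%, vertical axis) at or below each difference between groups (log2, horizontal axis), for protein-coding genes as solid lines and pseudogenes as dashed lines, on chromosome 14 (orange) and on the other chromosomes (blue). The solid orange line reaches 82.6% at 0 and the solid blue line 50.8%, and at the same place lie 27 of the 60 chromosome 14 pseudogenes and 31.3% of the pseudogenes elsewhere.

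The lower level of coding members was seen at every brightness. Coding members with a mean signal of 6 to 8 had a median difference of -0.18 (95 members), those of 8 to 10 had -0.15 (75 members), those of 10 to 12 had -0.18 (67 members) and those of 12 or more had -0.21 (33 members, 30 of them lower). Coding genes elsewhere went from -0.025 to 0.046 over the same 4 bands. Rows just under the brightness rule looked the same: 91 rows of chromosome 14 with 1 symbol and a mean of 5 to 6 had a median of -0.11, and 67 of them were lower (73.6%), against 49.2% elsewhere. The 799 rows with a mean under 5 had a median of 0.014, and such rows elsewhere also had 0.014. Just inside the rule lay Shld2, with a mean of 6.02, and Tsc22d1, with 6.04, and just outside it Tgm1, with 5.999, and Kat6b, with 5.97. The 93 bright rows with no listed gene had a median of 0.094 on chromosome 14 and 0.15 elsewhere.

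Along the chromosome the lower level was spread over nearly its whole length. Row identifiers rise along the plus strand and then along the minus strand, and the members were taken in that order in 24 blocks of about 15, 12 on each strand. The 9 members in a late run of identifiers, where the numbering starts over, were left out of the blocks, which held 355. The block median was below 0 in 22 of 24 blocks, and in 20 of 24 both shMCT-1 arrays lay below both NC arrays in their median deviation. Over coding members alone the median was below 0 in 24 of 24 blocks, from -0.37 to -0.0070.

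The lowest block ran from Extl3 to Pdlim2 on the minus strand. All 15 of its members are protein-coding, 15 of 15 were lower and 11 had no overlap between groups, with a median of -0.37. It was picked as the lowest of 24 blocks, and 82.6% of all coding members were lower and 50.7% lower without overlap, against 20.8% of all genes. Its deviations were 0.26 and 0.080 in the NC arrays and -0.075 and -0.21 in the shMCT-1 arrays, so that the groups were apart but NC replicate 1 and shMCT-1 replicate 2 stood further out than their partners. The 3 members named from it by size were Scara3, Ptk2b and Pdlim2. Scara3, a scavenger receptor-like protein tied to oxidative stress, was at 10.61 and 10.23 in the NC arrays, against 9.78 and 9.59 in the shMCT-1 arrays, a difference of -0.74 (SE 0.17). Ptk2b, the calcium-sensitive focal adhesion kinase PYK2, was at 8.29 and 8.08 against 7.61 and 7.70, a difference of -0.53 (SE 0.13). Pdlim2, an adaptor of the actin cytoskeleton that also directs ubiquitination in the nucleus, was at 6.83 and 6.37 against 6.33 and 5.89, with a difference of -0.49 that was -0.26 without NC replicate 1 and -0.27 when shMCT-1 replicate 2 was left out. The block lies in a run of 18 consecutive lower minus-strand members from Mtmr9 to Ppp3cc, with a median of -0.38 and 14 of 18 members without overlap. Such runs were not particular to this stretch. Another 18 consecutive minus-strand members, from Dlgap5 to Gm6755, were all lower, with a median of -0.21 and 9 without overlap. The last members of this run, Gm6740 and Gm6755, had the same difference of -0.21, also with each array left out. They may not be separate measurements, though both were counted. On the plus strand there were runs of 13 from Sucla2 to Tdrd3 and from Tasor to Capn7.

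Members of the opposite strand in that region were less uniform. With both strands merged in RefSeq order into 18 bins of about 20 (357 members), the bin from Pbk to Bin3 had 11 of 11 minus-strand members lower, with a median of -0.27, and 7 of 9 plus-strand members lower, with a median of -0.092. In the next bin, which starts at Ccar2, minus-strand members had a median of -0.29 (10 of 13 lower) and plus-strand members 0.083 (3 of 7 lower). Over coding members alone the medians in that bin were -0.38 (11 minus-strand members) and -0.0655 (4 plus-strand members). In the bin from Pbk to Bin3 they were -0.27 (11 members) and -0.12 (8 members). Of all coding members of the chromosome 82.6% were lower, and of all genes past the rule 46.8%. The difference between strands was not tested. Over all 18 bins the medians of the strands had a Pearson r of -0.17 and a Spearman rho of -0.24, a description, since both strands share the same 4 arrays. Both strands were below 0 in 15 of 18 bins.

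Another low stretch lay near the start of the plus strand. The block from Gm5457 to Vdac2, picked as the next lowest of the 24, had a median of -0.36 with 13 of 15 members lower and 9 without overlap. It holds Top2b, Sec24c, Zswim8, Plau and Vcl. In merged order the lowest bin, from Anxa7 to Zmiz1, overlaps this block, with a median of -0.28 and 16 of 20 members lower. Coding members made up 13 of the 15 and 19 of the 20. Of all coding members 82.6% were lower and 50.7% lower without overlap, against 46.8% and 20.8% of all genes. The block before Gm5457 starts with 7 predicted pseudogenes, Gm3348 to Gm17121, whose differences lay between -0.34 and -0.25. Their 4 values ran in parallel: Gm3348 was at 13.77 and 13.22 against 13.27 and 13.06, and Gm3170 at 13.78 and 13.20 against 13.23 and 13.07. Such near-identical copies may share probes and are not separate measurements. In both, NC replicate 2 lay below shMCT-1 replicate 1.

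Where the members did not sit low, the far part of the minus strand stood out. The block from Gtf2f2 to Rpl36a-ps1 had a median of 0.035, with 5 of 15 members lower, and the next one, from Mzt1 to Tgds, had 0.0088, with 7 of 15 lower. In both the 4 arrays did not sort by group. The first holds 5 pseudogenes and Hspa8, and its 9 coding members had a median of -0.042. Its 3 named members that were higher were small in size: Naa16, an auxiliary subunit of an N-terminal acetyltransferase, was at 7.91 and 8.27 against 8.23 and 8.47, and its difference of 0.26 was 0.077 without NC replicate 1. Dnajc15, a mitochondrial co-chaperone, was at 10.56 and 11.09 against 10.96 and 10.84, and its difference of 0.082 became -0.18 without NC replicate 1. The pseudogene Rps3a2 was at 16.86 and 16.85 against 16.89 and 16.95. The brightest member of all was Hspa8 at 19.73 to 19.82, a constitutive chaperone whose gene RefSeq places on another chromosome, with a difference of 0.036.

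**Figure D3:**
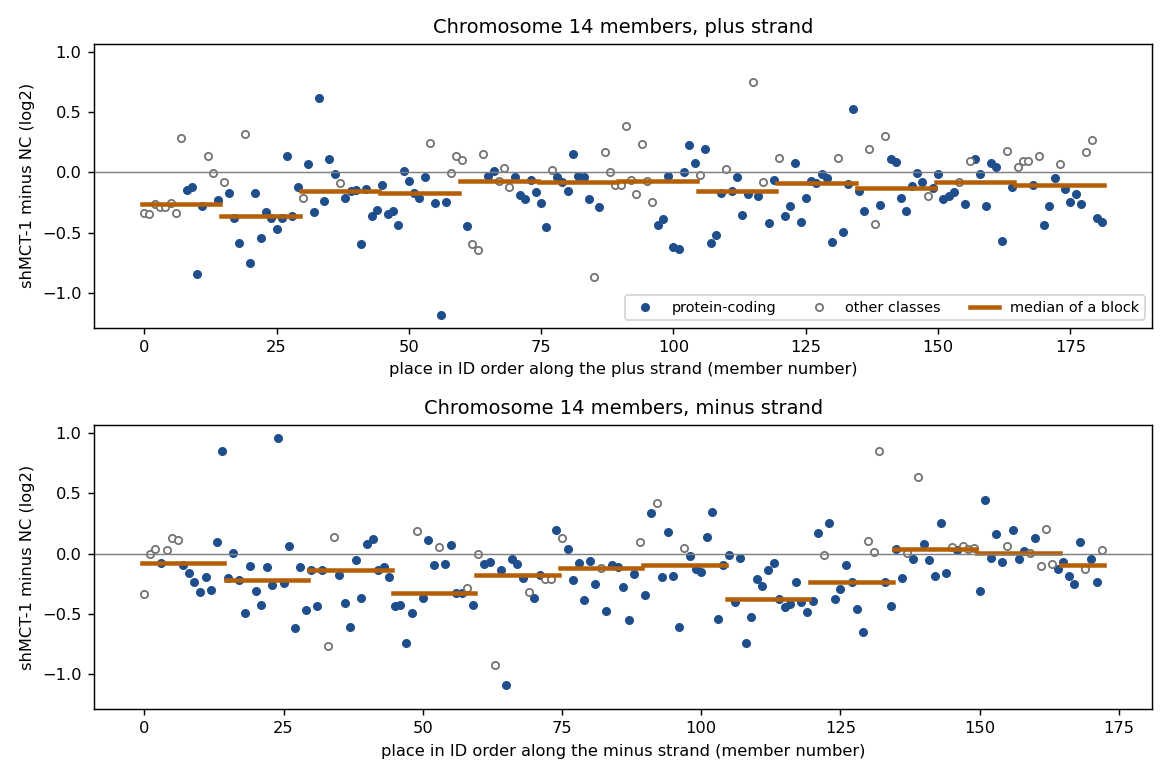
Difference between groups (log2, vertical axis) of the members in identifier order along the plus strand (upper panel) and the minus strand (lower panel), with filled points for protein-coding members, open points for other classes and a bar at each block's median. Of the 24 bars 22 lie below 0, the lowest at -0.37 on the minus strand and the highest at 0.035 further along the same strand.

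Neighbours did not resemble each other much within this broad shift. The differences of consecutive members had a Pearson r of 0.066 and a Spearman rho of 0.099 over 353 pairs, and among coding members 0.11 and 0.13 over 259 pairs. The r was 0.059 at 2 places apart, -0.022 at 5 and 0.11 at 10, so it did not fall steadily with distance. Computed in the same way for each chromosome, r was 0.075 on chromosome 14 and between -0.014 and 0.42 on the other 19, with a median of 0.073, and the 0.42 belonged to chromosome 8. By rank chromosome 14 stood higher: its rho was 0.10, below only chromosome 8 (0.19) and chromosome 19 (0.17). On the remaining chromosomes rho ran from -0.071 to 0.083. All pairs share the same 4 arrays, so these values are descriptions.

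The 10 lower members with the lowest unadjusted p came from both strands and from several blocks. Each had an adjusted p of 0.882 by limma, so none passed the test. Tspan14 was at 11.72 and 11.53 in the NC arrays, against 10.85 and 10.92 in the shMCT-1 arrays, a difference of -0.74 (SE 0.12, limma interval at 95% from -1.06 to -0.42). Sfmbt1, a Polycomb-related reader of methylated histones, was at 6.55 and 6.55 against 5.94 and 5.96, the tightest replicates among these members, with a difference of -0.60 (SE 0.10). Ang2, a ribonuclease of the angiogenin family and not the angiopoietin of the same short name, was at 8.11 and 8.55 against 7.14 and 7.34, a difference of -1.09 (SE 0.19). Signal shared between the angiogenin-family copies was not tested. Pxk, which encodes a kinase-like protein with a phosphoinositide-binding domain, was at 11.73 and 11.43 against 10.66 and 10.80, a difference of -0.85 (SE 0.15). Sh3bp5, a binding partner of the kinase JNK at mitochondria, was at 9.17 and 9.02 against 8.40 and 8.57, a difference of -0.61 (SE 0.13). In these 5 both shMCT-1 arrays were below both NC arrays with a gap wider than the spread within either group. Anxa8, outside the naming rule and chosen after its values were seen, had the lowest difference of all members at -1.18 (SE 0.26), with 11.94 and 11.28 against 10.58 and 10.28.

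**Figure D4:**
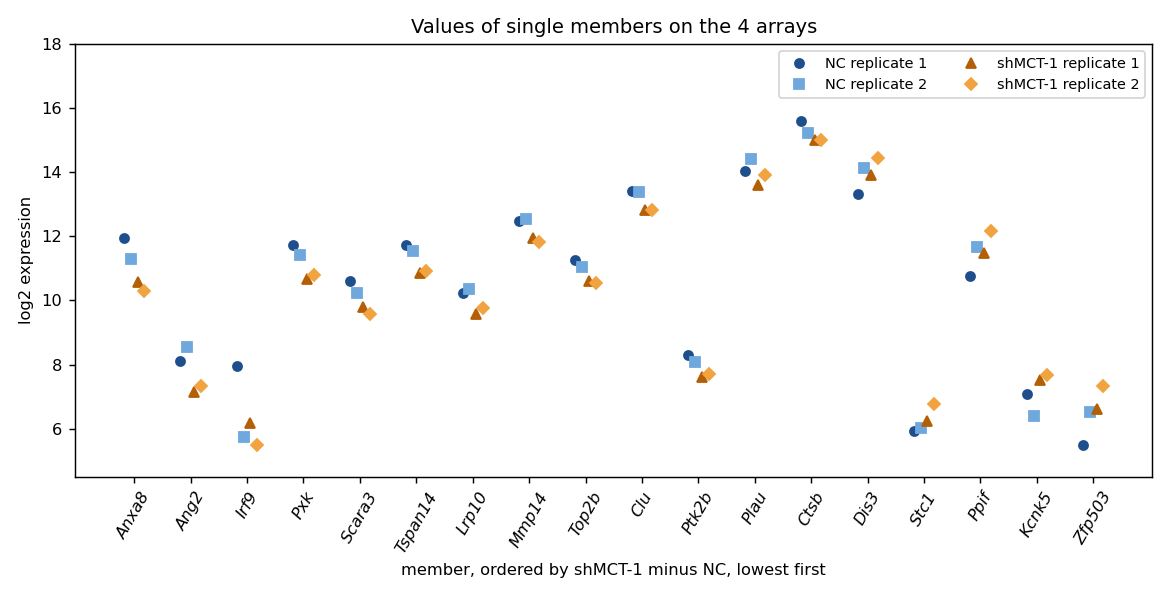
Log2 expression (vertical axis) of 18 single members on the 4 arrays, ordered by their difference between groups, with circles and squares for the NC arrays and triangles and diamonds for the arrays labelled shMCT-1. In Tspan14 the NC arrays are at 11.72 and 11.53 and the shMCT-1 arrays at 10.85 and 10.92, whereas in Irf9 NC replicate 1, at 7.96, stands apart from the other 3 arrays.

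The members are described next by role, from 9 lists that together hold 115 members and that were written with earlier results of these data known. Bap1 and Dock9 stand in 2 lists each. The lists are loose, and some of their members, such as Xpo7, Samd4, Acin1 and Dph3, have their main role elsewhere. No member of any list passed the adjusted threshold. All listed members are protein-coding, so each count is to be read beside the 270 coding members of the chromosome. Of those, 82.6% were lower, 50.7% had both shMCT-1 arrays below both NC arrays and 18.5% were lower at an unadjusted p under 0.05, with a median of -0.17. Over all genes past the rule these shares were 46.8%, 20.8% and 5.38%. A list near the coding shares shows nothing beyond the chromosome, and no list was tested against them. Members cited from the lists beyond those of the naming rule were chosen after their values were seen.

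The extracellular protease and matrix list was low in each of its 5 members, and in all 5 both shMCT-1 arrays were below both NC arrays, against 50.7% of coding members and 20.8% of all genes. The median was -0.47, over only 5 genes. Mmp14, the membrane-anchored collagenase that activates proMMP2 at the cell surface, was at 12.48 and 12.54 against 11.95 and 11.82, a difference of -0.62 (SE 0.11). Plau, urokinase, which turns plasminogen into plasmin, was at 14.05 and 14.41 against 13.61 and 13.90, a difference of -0.47 (SE 0.18). The Plau difference was between -0.65 and -0.29 when 1 array was left out, the smaller value without NC replicate 2. Ctsb, the lysosomal and secreted cysteine protease cathepsin B, was at 15.59 and 15.23 against 15 in both shMCT-1 arrays, a difference of -0.41 (SE 0.15) that was -0.23 without NC replicate 1. Clu, the secreted chaperone clusterin, was at 13.41 and 13.38 against 12.83 and 12.81, a difference of -0.57 (SE 0.10) with replicates almost on top of each other. Bmp1, the procollagen C-proteinase, was at 11.29 and 11.35 against 10.92 and 10.96.

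In the endomembrane and transport list nearly all members were lower in mean. Of 15 members 14 were lower (93.3%, coding members 82.6%) and 11 had no overlap (73.3%, coding members 50.7%, all genes 20.8%). At an unadjusted p under 0.05 there were 6 (40.0%, coding members 18.5%, all genes 5.38%), and the median was -0.26. Lrp10, an endocytic receptor of the LDL receptor family, was at 10.22 and 10.37 against 9.56 and 9.75, a difference of -0.64 (SE 0.13). Sec24c, a cargo-binding subunit of the COPII coat, was at 10.89 and 10.80 against 10.25 and 10.35, a difference of -0.55 (SE 0.11). Ktn1, the kinesin-binding protein kinectin of the endoplasmic reticulum, was at 11.90 and 11.64 against 11.29 and 11.34. Dad1, a subunit of the oligosaccharyltransferase, was the exception at 7.02 and 7.51 against 7.34 and 7.59, with overlapping groups.

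In the actin, adhesion and cytoskeleton list 10 of 12 members were lower, 7 without overlap (58.3%), with a median of -0.24. These shares lie near the coding members' 82.6% and 50.7%, where 20.8% of all genes were without overlap and lower. Vcl, vinculin, which links integrin and cadherin junctions to actin, was at 13.16 and 12.86 against 12.79 and 12.49, a difference of -0.37 that was -0.23 without NC replicate 1 and -0.22 when shMCT-1 replicate 2 was left out. Dock5, an exchange factor for Rac, was at 11.04 and 10.86 against 10.60 and 10.55 and was the only member of the list at an unadjusted p under 0.05. Diaph3, a formin that nucleates actin, was at 10.26 and 10.40 against 10.43 and 10.29, with a difference of 0.029. The largest difference of the list, Abhd4 at -0.44, depended on NC replicate 1, without which it was 0.038. Its values were 9.97 and 9.02 against 9.32 and 8.79, so that within each replicate number the shMCT-1 array was the lower. Abhd4 is a lipid hydrolase and not itself a cytoskeletal protein.

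Among 13 signalling members 11 were lower, 8 without overlap (61.5%), with a median of -0.19, near the coding members' 82.6%, 50.7% and -0.17 (all genes without overlap, 20.8%). Besides Ptk2b the lower members included Camk2g, a calcium and calmodulin-dependent kinase, at 10.08 and 9.77 against 9.50 and 9.49 (-0.27 without NC replicate 1), and Ppp3cc, a catalytic subunit of calcineurin, at 7.21 and 7.10 against 6.71 and 6.81. Bmpr1a, a type I receptor for bone morphogenetic proteins, was at 10.84 and 10.85 against 10.66 and 10.65, a small difference of -0.19 with tight replicates. Spry2, a feedback inhibitor of receptor tyrosine kinases, and the zinc transporter Slc39a14 were higher in mean by 0.13 and 0.17 with overlapping groups.

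Chromatin and transcription members were lower in 12 of 13, 7 without overlap, with a median of -0.20. The share without overlap, 53.8%, was near the 50.7% of coding members, against 20.8% of all genes. Bap1, the nuclear deubiquitinase of histone H2A, was at 9.72 and 9.80 against 9.34 and 9.54. Chd8, a chromatin remodeler, was at 8.45 and 8.52 against 8.23 and 8.33, and Pbrm1, a subunit of the PBAF remodeler, was at 11.35 and 11.30 against 11.23 and 11.21. These were modest and separate differences of -0.32, -0.20 and -0.10. Irf9, the DNA-binding subunit of the interferon-activated ISGF3 complex, had the largest difference of the list at -0.998, but it depended on NC replicate 1. Its values were 7.96 and 5.73 against 6.19 and 5.50, and without NC replicate 1 the difference was 0.12. Within each replicate number the shMCT-1 array was the lower.

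The proteasome and ubiquitin list had 11 of 12 members lower and 7 without overlap (58.3%, coding members 50.7%, all genes 20.8%), with a median of -0.19 near the coding members' -0.17. Ube2e1, a ubiquitin-conjugating enzyme, was at 11.67 and 11.85 against 11.38 and 11.50. The proteasome ATPase Psmc6 was at 14.69 and 14.75 against 14.63 and 14.75, with overlapping groups. Rnf31, the catalytic subunit of the linear ubiquitin ligase complex, was at 6.84 and 5.89 against 5.78 and 5.76, and Psme1, a subunit of the interferon-inducible proteasome activator PA28, was at 10.00 and 9.23 against 9.25 and 8.94. Without NC replicate 1 their differences of -0.59 and -0.52 became -0.12 and -0.13. For both genes each shMCT-1 array was below the NC array of its replicate number. NC replicate 1 was also high in Pck2, Nudt13 and Itm2b, and it was low in Zfp503, Ppif and Dis3.

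Mitochondrial and metabolic members were lower in 16 of 19 (84.2%), 9 without overlap (47.4%), with a median of -0.26. These shares were near the coding members' 82.6% and 50.7%, and 20.8% of all genes were without overlap. Slc25a37, mitoferrin 1, which imports iron into mitochondria, was at 10.18 and 9.87 against 9.53 and 9.64, a difference of -0.44 that was -0.29 without NC replicate 1. Sucla2, a subunit of succinyl-CoA ligase, was at 9.76 and 9.76 against 9.55 and 9.55, a difference of -0.21 whose groups were well apart. Ppif, the cyclophilin of the mitochondrial permeability pore, had the largest difference of the list and was higher by 0.62, at 10.75 and 11.67 against 11.48 and 12.17. Its groups overlapped, and the difference was 0.15 without NC replicate 1. Pck2, the mitochondrial phosphoenolpyruvate carboxykinase, was at 9.47 and 8.09 against 8.38 and 8.01, with a difference of -0.58 that became 0.10 without the same array. Within each replicate number the shMCT-1 array was the higher for Ppif and the lower for Pck2.

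Of the cell cycle and genome maintenance genes 12 of 16 were lower (75%, coding members 82.6%), with a median of -0.073. There were 5 without overlap (31.2%), between the 50.7% of coding members and the 20.8% of all genes. Top2b, topoisomerase II beta, which resolves DNA tangles, was at 11.25 and 11.05 against 10.60 and 10.53, a difference of -0.58 (SE 0.12). Rb1, the retinoblastoma protein that holds back entry into S phase, was at 8.16 and 7.63 against 7.45 and 7.42, a difference of -0.46 that was -0.19 without NC replicate 1. Dlgap5, a spindle protein, was at 12.48 and 12.47 against 12.14 and 12.15. The mitotic kinase gene Pbk was at 12.35 and 12.90 against 12.50 and 12.73, with no separation between groups.

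In the ribosome and translation list 8 of 12 members were lower (66.7%, coding members 82.6%), with a median of -0.064. There were 2 without overlap (16.7%, coding members 50.7%, all genes 20.8%). At an unadjusted p under 0.05 by limma 0 were lower (coding members 18.5%, all genes 5.38%). Ipo5, an importin that carries ribosomal proteins, was at 15.24 and 15.21 against 15.11 and 15.07. Rps24, a protein of the small ribosomal subunit, was at 10.37 and 10.64 against 10.46 and 10.69. Dis3, the nuclease of the RNA exosome, had the largest difference of the list at 0.44, at 13.33 and 14.13 against 13.91 and 14.43, with overlapping groups and a difference of 0.042 without NC replicate 1. Within each replicate number its shMCT-1 array was the higher.

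Few members were higher with separate groups. Kcnk5 was at 7.08 and 6.39 in the NC arrays, against 7.51 and 7.66 in the shMCT-1 arrays, a difference of 0.85 (SE 0.25, limma adjusted p = 0.882) that was 0.50 without NC replicate 2. Zfp503, a zinc finger repressor, was at 5.48 and 6.52 against 6.60 and 7.32, a difference of 0.96 (SE 0.43). Its NC replicates were further apart than the nearest arrays of the groups, and the difference was 0.44 without NC replicate 1, 0.60 without shMCT-1 replicate 2 and 1.48 without NC replicate 2. Stc1, the secreted glycoprotein stanniocalcin 1, was at 5.93 and 6.03 against 6.25 and 6.76, a difference of 0.52 (SE 0.20) that was 0.27 without shMCT-1 replicate 2. Kcnk5 and Zfp503 lie in consecutive blocks of the minus strand whose medians were -0.080 and -0.22, and Stc1 in a plus-strand block at -0.086. In these blocks 9, 12 and 11 of 15 members were lower, where 72.8% of all members and 46.8% of all genes were. The 4 arrays sorted by group in the block of Zfp503 but not in those of Kcnk5 and Stc1. Cdv3, also separate at 12.56 and 12.62 against 12.72 and 12.83, is placed on another chromosome by RefSeq.

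With each array left out in turn, 190 members were lower in every fit and 29 were higher in every fit, and for 145 the sign turned in at least 1 fit. Among the 270 coding members 164 were lower in every fit, 10 were higher in every fit and 96 turned. The same counts were not made over all genes past the rule, so they have no background beside them. Relative to the median of all genes, the members' median was between -0.15 and -0.13 under all normalisations and with any 1 array left out, and chromosome 14 stayed number 2 from the bottom of the 20 chromosomes. The raw median moved more, from -0.17 without shMCT-1 replicate 2 to -0.085 without NC replicate 2, and the median of all genes moved with it.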

How the data were processed

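Gene expression of 4 arrays (2 NC, 2 shMCT-1) was taken from the deposited table of log2 values. These log2 values were made by the authors with RMA in Affymetrix Expression Console, per the submitters' processing notes, and no version, option or genome build is given in the sources used here. Rows were named through the platform's probe table, with symbols updated by gene ID through a RefSeq table of GRCm38.p6, and 0 per-sample columns were left unused. The chromosome and strand of a row come from its identifier. RefSeq was used for gene class, for the order of both strands merged and for promoter windows, and 7 members it does not list on chromosome 14 were left out of that order.

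Differences (shMCT-1 minus NC) were fitted on all 65956 rows with limma 3.58.1 in R 4.3.3 (lmFit, eBayes, two-sided, Benjamini-Hochberg adjustment, threshold 0.05), where the residual degrees of freedom were 2 and the prior ones 2.72. The fit was also run on simulated arrays with known changes, and the outcome of that run is not given here. An exact permutation test of 2 against 2 arrays cannot go below p = 0.333, and none was run. The number of arrays limits the precision.

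The members, role lists and tests were chosen with earlier results of these data known. Genes were named by rule: apart from predicted, small RNA and receptor segment genes, the 10 lower and 5 higher members with the lowest p, the largest difference of each role list, Mmp14, Plau and Ctsb, 3 members of the lowest and of the highest block, the brightest member and the 2 nearest the threshold on each side. Any other gene in the text was picked with its values in view. Alternatives covered normalisation, moderation, rows fitted, brightness, gene rows, block size, order, the replicate number as a block and each array left out, when a group's remaining array borrows the spread of the other group. Protein-coding members alone were added after seeing the data.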

Additional observations from a re-analysis of the deposited data

How the results depend on the processing

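With 2 arrays a group, 0 members passed limma's adjusted threshold under any setting, and the lowest adjusted p of a member was 0.275, with the replicate number as a block. The members' unadjusted count at p under 0.05, 59 in the main fit, was 89 with the replicate block, 37 at a mean of at least 8, 95 with no brightness rule and 23 to 84 when 1 array was left out. Same-numbered arrays deviated together (correlation 0.42 over all rows, 0.72 over members), and whether they shared more than a number is not given. The main fit and the overlap of groups do not take this pairing into account. Leaving out 1 array also leaves the replicate numbers unequal between groups, so such values mix both. Lower members numbered 173 at a mean of at least 8 and 684 with no brightness rule, where the median was -0.016 over mostly dim genes. The median ran from -0.17 to -0.085, and the count lower from 222 to 302, when 1 array was left out. Blocks below 0, 91.7% in the main order, were 95.8% with median centring and in RefSeq order, 100% with quantile normalisation, 88.6% in blocks of 10 and 87.5% to 100% when 1 array was left out. The highest block's median was -0.0052 with quantile normalisation and -0.018 to 0.11 when 1 array was left out. Neighbour correlation was 0.099 at a mean of at least 5, 0.035 at a mean of at least 7, -0.022 at lag 5 and 0.11 at lag 10. Signs turned without NC replicate 1 for Abhd4 (0.038), Dnajc15 (-0.18), Hspa8 (-0.0074) and Irf9 (0.12); leaving out any 1 array gave -0.92 to 0.038, -0.18 to 0.35, -0.0074 to 0.079 and -2.11 to 0.12. The causes were not tested.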

Other observations

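Among the 17 small RNA members 2 had both shMCT-1 arrays below both NC arrays and 1 (Gm22379) had both above, against 20.8% and 18.5% of all genes past the rule. The lower ones were Snord69, a C/D box guide of RNA methylation, at 16.96 and 16.51 in the NC arrays against 16.27 and 15.67 (-0.77, and -0.46 without shMCT-1 replicate 2), and Mir320, a microRNA precursor, at 7.38 and 7.52 against 7.07 and 6.97. Rpph1, the RNA subunit of RNase P, varied more within groups than between them, at 14.99 and 13.38 against 14.31 and 12.21. The small RNA genes Gm22823 and Gm24540, on opposite strands, had the same values on all 4 arrays to the digits shown, 13.87 and 13.71 against 14.17 and 13.62, and were counted as 2 members.

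Of the T cell receptor alpha segments, 7 passed the brightness rule in these epithelial cells, with a median difference of -0.062. The brightest was Traj25 at 8.93 and 8.84 against 8.98 and 8.63, while Cd3e, a T cell marker, lay between 2.80 and 2.99. Trav13n-4 was the only one of the 7 with separate groups, at 7.19 and 7.26 against 7.64 and 7.58. Of all genes past the rule 18.5% had both shMCT-1 arrays above both NC arrays and 20.8% had both below.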
